A study of Mus musculus with 31 samples.

Results

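Hippocampi taken 8 days after rAAV-OVA were compared here with hippocampi taken 5 days after the same vector, gene by gene, to describe what the tissue expressed after the seizure-prone period that the time point of 5 days was chosen to catch. The comparison holds 4 mice at 8 days (D700, D701, D702 and D703) and 4 mice at 5 days (D725, D726, D786 and D787), 8 of the 31 mice of the series, chosen by their labelled vector and day. All mice were OT-I/Rag1-/-, which means that they lack B and T cells with receptors of their own making and that nearly all their T cells are CD8+ cells with 1 transgenic receptor for an ovalbumin peptide. The rAAV-OVA vector brings ovalbumin (OVA) and mCherry under the hSyn promoter, which is active in neurons, and was injected into the dorsal CA1 region of both sides. The rAAV-control mice received mCherry without OVA under the same promoter, and 4 of them at 5 days (D723, D724, D745 and D755) and 3 at 8 days (D696, D720 and D722) served for the change over the same days without the antigen. All were adult mice given the analgesic ketoprofen, and RNA came from the left hippocampus. All 15 mice belong to batch 1 of the labels. The model thus shows the response of a single T cell specificity to a neuronal antigen in hosts that lack B cells and other T cells and keep NK cells.

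CD8+ T cells that recognize a peptide on MHC class I release interferon-gamma, which turns on guanylate-binding proteins, antigen presentation and chemokines in microglia, astrocytes and neurons. Neurons that fire strongly, as during seizures, switch on immediate early genes such as Fos and Npas4 within minutes and, later, genes of secreted peptides and growth factors such as Bdnf, Inhba and Nptx2. Astrocytes around injured or overactive neurons can lower genes of glutamate handling and coupling and raise structural and matrix genes.

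Each library is a bulk sample, so fewer cells of a type and less RNA per cell cannot be told apart. The 8 rAAV-OVA libraries held between 19046977 (D702) and 32698495 assigned counts. Levels are given in CPM, counts per 1000000 after TMM scaling of the libraries, and single mice are always listed as D725, D726, D786 and D787 at 5 days and as D700, D701, D702 and D703 at 8 days. Log2FC is the difference of 8 days minus 5 days on the log2 scale from edgeR's quasi-likelihood test over 15648 genes, with its standard error (SE), and FDR is the p-value adjusted by the Benjamini-Hochberg method over all of them. Genes with an FDR up to 0.05 and a Log2FC of 0.66 or more in size were called DEGs. Besides the groups, the model held 2 surrogate variables, estimated from the counts, for variation among libraries beyond the group means. On the first of them, D700 (−0.24) and D703 (−0.18) lay near the rAAV-OVA mice of 5 days (−0.26 to −0.04), and D702 (0.06) and D701 (0.25) lay above them. The first variable was thus not free of the days. At 8 days it ran against a list of interferon-gamma response genes. The mean log2 CPM of that list was 7.27 in D700, 7.05 in D703, 6.75 in D702 and 6.21 in D701. Whether the variable holds part of the immune response was not tested. Salmon divides reads among near-identical copies, so single members of the guanylate-binding protein, MHC, histone and T cell receptor families are less certain. The authors kept estimated counts only for genes reaching 15 counts in 15 or more of the 31 mice, which leaves out genes that few mice express.

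Between 5 and 8 days, 336 genes (2.15% of those tested) were DEGs. The increased ones numbered 160 (1.02%), and 176 (1.12%) were decreased. The decreases were the larger ones: 18 decreased DEGs had a Log2FC of −2 or less and 97 of −1 or less, while 7 increased DEGs reached 2 and 62 reached 1. The median Log2FC of all genes was 0.03. In 136 of the increased DEGs every mouse of 8 days lay above every mouse of 5 days, and in 151 of the decreased DEGs below, where 1003 (6.41%) and 1031 (6.59%) of all genes did so. In the rAAV-control mice, 0 genes (0%) were DEGs over the same days by edgeR, where 299 (1.91%) had an unadjusted p under 0.05, beside 3029 (19.4%) in rAAV-OVA mice, and DESeq2's Wald test called 2. A test of the difference between both changes called 28 genes (0.179%), of which 9 changed more upward and 19 more downward in rAAV-OVA mice. The counts depended on single mice. Without D725 there were 155 DEGs, without D702 195, without D787 205 and without D700 217, and with any other mouse of 5 or 8 days left out between 244 and 400, while the test of the difference called 8 to 34 genes.

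**Figure D1:**
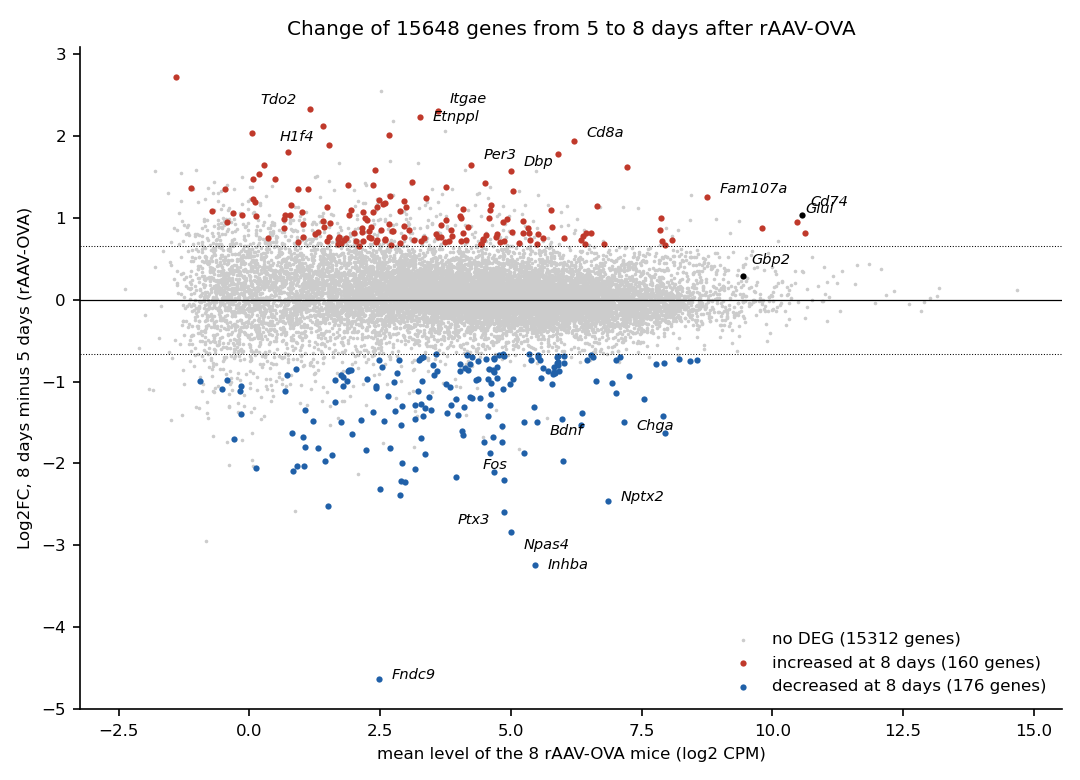
Each point is 1 of 15648 genes, with its mean level in the 8 rAAV-OVA mice on the x axis (log2 CPM) and its Log2FC from 5 to 8 days on the y axis. Red points are the 160 increased DEGs, blue points the 176 decreased DEGs and grey points the other genes, and dotted lines mark the limit of 0.66. Fndc9, Inhba and Npas4 lie lowest, and the interferon-induced Gbp2 and the MHC class II gene Cd74, in black, are no DEGs.

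The levels of the rAAV-control mice put these changes in place. Of the 176 decreased DEGs, 112 had been higher than in rAAV-control mice at 5 days, where 1496 genes (9.56%) were higher and 730 (4.67%) lower DEGs. At 8 days, 168 of the 176 were no DEGs against rAAV-control mice, as 64 had not been at 5 days, where 1464 genes (9.36%) were higher and 92 (0.588%) lower. Their median Log2FC against rAAV-control mice was 0.97 at 5 days and −0.17 at 8 days. Of the 160 increased DEGs, 108 had been lower than in rAAV-control mice at 5 days and 132 were no DEGs against them at 8 days, as 41 had not been at 5 days, with medians of −0.85 and −0.06. These values use the same rAAV-OVA mice as the change between the days, so they describe its starting and end points and are no separate evidence for it. The rAAV-control group of 8 days held 3 mice, and D720 stood apart from the other 2. Its mean log2 CPM of the interferon-gamma list was 5.94, beside 2.08 in D696 and 3.67 in D722. Whether this lowered the number of DEGs against rAAV-control mice at 8 days was not tested. Ptx3, Lif and Calca remained higher at 8 days, Sypl2 and Plk5 remained lower, and Kcna4, Dbh, Or13a25 and 2 genes without a symbol were lower at 8 days but not at 5 days. The change between the days lost its call under 5 alternatives for Calca, 6 for Sypl2, 3 for Dbh and 6 for Or13a25, and these 4 genes were picked after their values were seen. Of the increased DEGs, 11 had already been higher at 5 days, among them Cd8a, Trbc2, Lck and Itgae of T cells.

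Part of the immediate early genes, which neuronal activity induces, fell. In a list of them, 10 of 34 (29.4%) were decreased DEGs and 0 increased, with a median Log2FC of −0.57. The decreased ones numbered 4 without D725, 5 without D703, and 6 without D700, without D702, with the 8 rAAV-OVA mice alone or with ashr shrinkage, where the median was −0.14. Npas4 (ENSMUSG00000045903.10), an activity-dependent transcription factor of neurons, had 14.2, 47.5, 34.6 and 128 CPM at 5 days and 11.3, 4.16, 8.52 and 8.43 CPM at 8 days. The 4 mice of 5 days were spread over a wide range and the lowest of them, D725, lay just above the highest mouse of 8 days (Log2FC −2.84, SE 0.51, FDR 0.00163). Fos (ENSMUSG00000021250.14), a subunit of the AP-1 transcription factor, had 50.6, 43.7, 45.7 and 97.6 CPM and then 26.6, 13.2, 14.1 and 13.4 CPM. Mouse D787 was the highest at 5 days and D700 at 8 days, and the groups did not overlap (Log2FC −1.87, SE 0.34, FDR 0.00203). Fosb, which encodes another AP-1 subunit, went from 44.9, 27.3, 22.9 and 40.5 CPM to 11.9, 11, 12.5 and 9.43 CPM, with no overlap (Log2FC −1.74, SE 0.32, FDR 0.0023). At 8 days, Fos stood at 16.8 ± 6.55 (SD, n = 4) CPM and at 22 ± 8.79 (SD, n = 3) CPM in the rAAV-control mice of that day, and Fosb at 11.2 ± 1.34 (SD, n = 4) and 14.8 ± 4.37 (SD, n = 3) CPM.

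The other decreased members were Ccn1, a secreted matrix protein (Log2FC −1.41, SE 0.34, FDR 0.0161), Homer1, whose short activity-induced form uncouples glutamate receptors from their scaffold (Log2FC −1.14), Fosl2 (Log2FC −0.996), Gadd45g (−0.98), Ier5 (−0.77), Csrnp1 (−0.72) and Gadd45b (−0.67). Homer1 and Fosl2 were picked for mention after their values were seen, as were the members named next. Homer1 had 306, 122, 109.7 and 162 CPM at 5 days and 86.3, 90.1, 77.2 and 72.7 CPM at 8 days, and it was no DEG without D725, D700, D702 or D703 or with the 8 rAAV-OVA mice alone. Ccn1 was no DEG without D725, without D786 or with the 8 rAAV-OVA mice alone. The other 24 genes did not pass the test. Arc, whose protein acts at active synapses, had 172, 129, 111 and 255 CPM and then 148, 82.6, 114 and 64.6 CPM, with overlapping groups (Log2FC −0.76, SE 0.30, FDR 0.147). Nr4a1 had a Log2FC of −0.42 (FDR 0.442) and Egr3 of −0.67 (FDR 0.13), and neither had been a DEG against rAAV-control mice at 5 days.

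**Figure D2:**
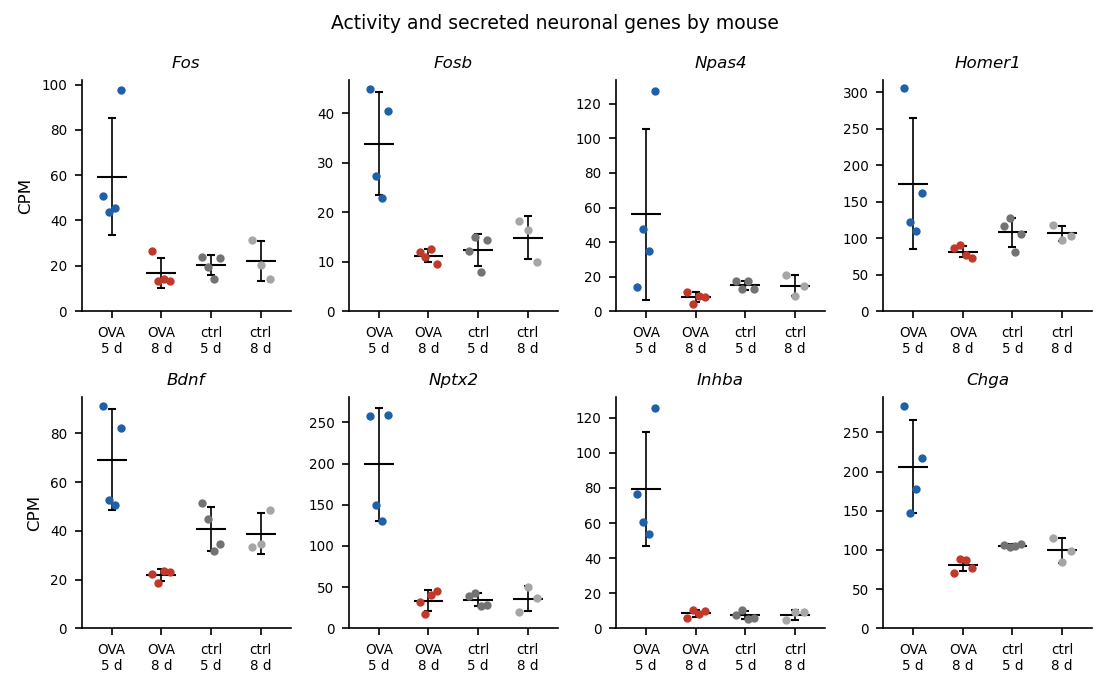
CPM of 4 immediate early genes (upper row) and 4 genes of secreted neuronal proteins (lower row) in each mouse, with the groups on the x axis and the mean and SD as black bars. In all 8 genes the rAAV-OVA mice of 5 days (blue) lie above those of 8 days (red), and Inhba falls from a mean of 79.2 to 8.58 CPM.

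Part of the genes that follow activity later also fell. Of 23 late activity genes and neuropeptides, 8 (34.8%) were decreased DEGs and 0 increased, with a median Log2FC of −0.78. That median was −0.59 without surrogate variables and ran from −0.79 to −0.24 over the alternatives that left no mouse out. The mean log2 CPM of the list was 5.34 to 5.72 in the mice of 5 days and 4.65 to 4.84 in those of 8 days. Inhba (ENSMUSG00000041324.15), the beta-A subunit of activins, had 76.8, 60.6, 53.6 and 126 CPM at 5 days and 5.95, 10.2, 8.27 and 9.94 CPM at 8 days. Its level at 8 days was within the range of all rAAV-control mice, 5.38 to 10.4 CPM at 5 days and 4.47 to 9.07 CPM at 8 days (Log2FC −3.24, SE 0.40, FDR 4.28e-05). Nptx2 (ENSMUSG00000059991.8), a secreted pentraxin that clusters AMPA receptors, had 258, 149.9, 131 and 259 CPM and then 32.3, 17, 40.5 and 45 CPM. D725 and D787 were the high mice of 5 days, D701 was the low mouse of 8 days, and the groups lay far apart (Log2FC −2.46, SE 0.28, FDR 1.57e-05). Chga, chromogranin A of dense-core vesicles, went from 284, 147, 178 and 217 CPM to 70.9, 88.6, 87 and 77.5 CPM (Log2FC −1.50, SE 0.17, FDR 1.57e-05). Bdnf, the neurotrophin most tied to activity, had 91.2, 52.7, 50.5 and 82.3 CPM and then 22.3, 18.6, 23.7 and 23 CPM (Log2FC −1.49, SE 0.25, FDR 0.000759). Bdnf ended below its rAAV-control level of 38.9 ± 8.45 (SD, n = 3) CPM, with an FDR of 0.0633 for that difference at 8 days.

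Scg2, Vgf, Ptgs2 and Penk, picked after their values were seen, belong to the same list. Scg2, secretogranin II of secretory granules, had 370.3, 316, 255 and 432 CPM and then 122, 132, 147 and 150.2 CPM (Log2FC −1.42, SE 0.25, FDR 0.00122). Vgf, a neuropeptide precursor, had a Log2FC of −1.22 (FDR 0.000393), Ptgs2, the inducible cyclooxygenase, of −1.49 (FDR 0.00524), and the sorting receptor Sorcs3 of −0.96. Penk, the enkephalin precursor, had 75.3, 40.3, 41.6 and 52.1 CPM at 5 days and 20.4, 16.1, 18.2 and 19.5 CPM at 8 days. Its groups did not overlap, but its spread in the model was wide and it was no DEG (Log2FC −1.83, SE 0.65, FDR 0.106). The model estimates that spread from all 31 mice, and Penk had 181 ± 325 (SD, n = 4) CPM in the rAAV-OVA mice of 28 days. Its SD was 16.2 CPM at 5 days and 1.9 CPM at 8 days. Without surrogate variables and with the mice of 5 and 8 days alone Penk was a DEG.

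Many activity genes are known to answer to CREB, which binds the cAMP response element TGACGTCA, so the RefSeq promoters (250 bases before to 50 after the start of transcription, build GRCm38) were searched for it. The element reads the same on both strands, and 3.43% of the 11548 promoters found for genes of the table held it. A promoter was found for 123 of the 176 decreased DEGs, of which 4 (3.25%) held it, and for 117 of the 160 increased DEGs, of which 2 (1.71%) did. Fewer than 80% of each had a promoter, so a comparison of these shares is void. The windows around the element are shown for Scg2 and for Sstr2, the somatostatin receptor gene that had 41.2, 16.2, 17.9 and 20.8 CPM at 5 days and 8.53, 13, 8.27 and 7.17 CPM at 8 days (Log2FC −1.61, SE 0.29, FDR 0.00179), both picked after their values were seen. Sstr2 was no DEG with the 8 rAAV-OVA mice alone. The others that hold it are Kif17 and Tmem198 among the decreased and Hlf and H4c8 among the increased DEGs. Capitals mark the element, and a match is a description of the sequence only.
Scg2, chr1:79440062-79440119, minus strand: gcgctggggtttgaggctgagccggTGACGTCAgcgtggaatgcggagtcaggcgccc
Sstr2, chr11:113619244-113619301, plus strand: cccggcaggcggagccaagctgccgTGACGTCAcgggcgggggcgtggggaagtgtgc

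Pmepa1, Fstl3 and Skil, picked after their values were seen, and Acvr1c, named by rule, are linked to activins and TGF-beta, and the other genes of these pathways were not compared as a list. Pmepa1, a TGF-beta target that restrains the pathway, had 144, 94.6, 96.4 and 142 CPM at 5 days and 47.8, 42.8, 45.6 and 42.5 CPM at 8 days. The difference of its change from that in rAAV-control mice, −1.26 on the log2 scale, had the lowest FDR of all genes for that test (0.00786), and its own change was Log2FC −1.38, SE 0.13, FDR 1.05e-06. Fstl3, a secreted protein that binds activin, had 3.84, 2.37, 2.12 and 3.34 CPM and then 0.913, 0.625, 0.457 and 0.542 CPM, a low level throughout (Log2FC −2.10, SE 0.33, FDR 0.000382). Acvr1c, a receptor of the activin family, went from 64.2, 28.8, 42.9 and 54.9 CPM to 8.69, 13.8, 8.93 and 12.3 CPM (Log2FC −2.20, SE 0.30, FDR 0.000105). Skil, which encodes a repressor of SMAD proteins, went from 198, 135, 152 and 184 to 103, 85.1, 78.7 and 103 CPM (Log2FC −0.74, SE 0.09, FDR 1.94e-05). For Inhba, Fstl3, Acvr1c and Skil, too, the change differed from that of the rAAV-control mice (FDR 0.0191, 0.0393, 0.0456 and 0.0142).

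Other genes with the largest decreases have varied roles. Fndc9, a membrane protein gene of little-known function, had 16.4, 5.88, 4.88 and 14.9 CPM at 5 days and 0.237, 0.416, 0.862 and 0.783 CPM at 8 days, and its Log2FC was the lowest of all DEGs (Log2FC −4.64, SE 0.88, FDR 0.00271). Gpr151, an orphan receptor gene of neurons, went from 3.26, 2.28, 4.31 and 9.68 CPM to 0.846, 0.416, 0.457 and 1.57 CPM (Log2FC −2.53, SE 0.53, FDR 0.00644). Both were close to their rAAV-control levels at 8 days, which were 0.555 and 0.553 CPM on average. Gldn, which encodes gliomedin, had 23.3, 8.87, 6.04 and 12.5 CPM and then 2.03, 2.17, 1.98 and 2.17 CPM (Log2FC −2.38). Olfm4, an olfactomedin gene, had a Log2FC of −2.23 (FDR 0.000382), Serpinf2, a plasmin inhibitor, of −2.22 (FDR 0.0147) and Thbs1, thrombospondin 1 of the matrix, of −2.10 (FDR 0.00577). Serpinf2 was no DEG without D725, D700 or D703. Sv2c was the DEG among 21 genes of synaptic vesicle release, with 138, 56.4, 100.4 and 102 CPM and then 26.2, 37.1, 26.9 and 26 CPM, and its relatives Sv2a (−0.06) and Sv2b (−0.35) were no DEGs. Among 25 potassium and sodium channel genes, Kcna4 passed the test, with 26.8, 21.7, 26.2 and 33.1 CPM and then 14.6, 13.7, 13.2 and 17.1 CPM (Log2FC −0.97, SE 0.25, FDR 0.0293). At 5 days Kcna4 was at its rAAV-control level, 32.2 CPM, so its level at 8 days was below that of rAAV-control mice (Log2FC −0.90, FDR 0.0252). It lost the call under 8 of 26 alternatives, among them the model without surrogate variables.

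Genes of neuronal injury moved in part. Of 22 such genes, 3 (13.6%) were decreased and 1 increased. Tnfrsf12a, the receptor of the cytokine TWEAK, had 37.9, 15.3, 17.3 and 33.5 CPM at 5 days and 6.19, 3.71, 4.51 and 5.18 CPM at 8 days (Log2FC −2.17, SE 0.34, FDR 0.000406). Odc1, the first enzyme of polyamine synthesis, went from 253, 174, 161 and 240.1 CPM to 124, 83.5, 93.8 and 102 CPM (Log2FC −0.94, SE 0.14, FDR 0.000302). Sox11, a transcription factor of axon regrowth, had a Log2FC of −1.29 (FDR 0.0132), and D701 at 22 CPM overlapped with the mice of 5 days. Bbc3, the pro-apoptotic gene also called Puma, had 2.91, 3.7, 4.05 and 2.5 CPM and then 6.43, 5.62, 4.31 and 6.05 CPM (Log2FC 0.83, SE 0.20, FDR 0.0188). Sox11 and Bbc3 each lost the call under 6 of 26 alternatives. Both were no DEGs with the 8 rAAV-OVA mice alone or without D725, D700 or D703, Sox11 also without surrogate variables or with the batch label in their place, and Bbc3 also without D787 or with ashr shrinkage. Atf3, a transcription factor of injured neurons, had 20.5, 12.7, 13.5 and 14.2 CPM at 5 days and 14.9, 5.0, 7.66 and 10.5 CPM at 8 days, with overlapping groups (Log2FC −0.37, FDR 0.642, and −0.67 without surrogate variables), and was above rAAV-control mice at both times, by 2.59 and 2.19 on the log2 scale. Ecel1, an endopeptidase of injured neurons, had 8.92, 10.3, 15.2 and 18 CPM and then 4.46, 3.54, 5.48 and 5.12 CPM, without overlap and with an FDR of 0.132. Without surrogate variables, Ecel1 was a DEG with the mice of 5 and 8 days alone and with the 8 rAAV-OVA mice alone.

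The genes that define neurons themselves did not pass the test. Of 25 pan-neuronal and excitatory genes, 0 were DEGs, with a median Log2FC of −0.02 between −0.56 (Nefm) and 0.44 (Camk2a). Rbfox3, the gene of the neuronal marker NeuN, had 175, 169, 192 and 176 CPM at 5 days and 149.8, 183, 162 and 164 CPM at 8 days, and Snap25 of the synaptic fusion machinery 1162, 1280, 1185 and 1288 and 959.8, 1487, 1151 and 1191 CPM. Of 16 interneuron genes and 10 genes of CA3 and CA2, 0 were DEGs. Among 8 CA1 genes, Lefty1 was increased, with 3.68, 6.22, 2.69 and 3.84 CPM and then 10, 5.79, 8.12 and 7.77 CPM, and D701 of 8 days lay below D726 of 5 days (Log2FC 1.18, SE 0.28, FDR 0.015). It lost the call under 7 of 26 alternatives, among them the model without surrogate variables. Wfs1, a defining gene of dorsal CA1, had a Log2FC of 0.01 (FDR 0.986). Of the 8 CA1 genes, 7 had a Log2FC above 0, where 55.7% of all genes did, with a median of 0.30 (0.42 without surrogate variables). The mean log2 CPM of the CA1 list was 5.18 to 5.54 in the mice of 5 days and 5.61 to 5.80 in those of 8 days, without overlap. In the rAAV-control mice of 8 days it was 5.72 to 6.23.

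Among 13 genes of dentate granule cells, 2 were increased. Tdo2, which encodes tryptophan dioxygenase, had 0.155, 1.73, 0.498 and 0.742 CPM at 5 days and 2.27, 4.58, 3.65 and 4.22 CPM at 8 days. It had the largest Log2FC among the increased DEGs named by rule, at a low level (Log2FC 2.34, SE 0.45, FDR 0.00327). It was no DEG with the 8 rAAV-OVA mice alone, and the rAAV-control mice of 8 days had 6.31 ± 2.7 (SD, n = 3) CPM. Plk5, a polo-like kinase gene, had 3.22, 4.07, 2.95 and 3.67 CPM and then 5.85, 9.54, 8.37 and 9.19 CPM (Log2FC 1.17, SE 0.30, FDR 0.0277), and was still below the rAAV-control mean of 17.7 CPM (FDR 0.0199). It was no DEG by limma voom or without D725, D786, D787, D702 or D703. Prox1, the factor that defines granule cells, had 171, 92.5, 82.2 and 80.1 CPM and 66.6, 124, 89.1 and 96 CPM, with a Log2FC of −0.06. Mouse D725 stood above the other mice in Prox1 at 5 days and had the lowest level of Tdo2.

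Genes of reactive astrocytes fell in part. Of 27, 4 (14.8%) were decreased and 0 increased, with 2 decreased without D725 and 2 without D703. The median Log2FC of the 27 was −0.26 (−0.49 without surrogate variables). In 10 of them all mice of 8 days lay below all of 5 days and in 1 above, where 6.59% and 6.41% of all genes did so. The list's mean log2 CPM was 5.59 to 6.16 in the mice of 5 days and 4.62 to 5.41 in those of 8 days. It remained above the 3.14 and 2.88 of the rAAV-control mice D722 and D696 at 8 days, while the third, D720, had 4.97. Ptx3, a secreted pentraxin, had 109, 13.6, 41.3 and 46.6 CPM at 5 days and 4.09, 2.54, 7.71 and 7.74 CPM at 8 days. All mice of 8 days were lower (Log2FC −2.59, SE 0.61, FDR 0.015) but still above the rAAV-control mean of 1.65 CPM (FDR 0.0174). Tnc, tenascin C of the matrix, had 82.1, 45.3, 53.1 and 76 CPM and then 29.7, 16.9, 21.5 and 22.6 CPM (Log2FC −1.31, SE 0.32, FDR 0.0173). Nes, the intermediate filament nestin, went from 47.4, 27.4, 26.9 and 35.6 to 16.9, 14.7, 14.5 and 12.6 CPM (Log2FC −1.15, SE 0.22, FDR 0.00282), and Emp1, a membrane protein gene, had a Log2FC of −1.42 (FDR 0.0132). Ptx3 was no DEG without D725, D700 or D703, and Tnc none without D725, D787 or D703. Gfap and Vim, the filament genes that most define reactive astrocytes, did not pass the test. Gfap had 3054, 2452, 1925 and 2758 CPM and then 2107, 1407, 1705 and 1638 CPM (Log2FC −0.26, FDR 0.773, and −0.57 without surrogate variables), and Vim 513, 431, 409 and 379.6 CPM and then 645, 230.3, 329.8 and 447 CPM (Log2FC 0.25, FDR 0.819), which changed sign to −0.07 without surrogate variables. Lif, a cytokine of the interleukin-6 family picked after its values were seen, had 25.2, 5.08, 22.8 and 13.7 CPM and then 3.45, 2.92, 3.6 and 5.48 CPM (Log2FC −1.89, FDR 0.0036).

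Some genes of resting astrocytes rose. Of 16 genes, 3 (18.8%) were increased and 0 decreased, with a median Log2FC of 0.29. Glul (ENSMUSG00000026473.17), glutamine synthetase, which converts glutamate and ammonia into glutamine, had 769, 1135, 1005 and 944 CPM at 5 days and 1497, 2251, 2171 and 1663 CPM at 8 days. All mice of 8 days lay above all of 5 days, and close to the rAAV-control mice of 8 days at 1972 ± 297 (SD, n = 3) CPM (Log2FC 0.95, SE 0.16, FDR 0.00107). Gja1 and Gjb6 encode connexin 43 and connexin 30, which join astrocytes through gap junctions. Gja1 had 109, 197, 178 and 155 CPM and then 281, 388, 295 and 237 CPM (Log2FC 0.86, SE 0.15, FDR 0.00122), and Gjb6 25.6, 43.6, 33.2 and 31 CPM and then 58.4, 96.4, 90.1 and 56.9 CPM (Log2FC 1.10, SE 0.20, FDR 0.00203). Gja1 was no DEG with the 8 rAAV-OVA mice alone. The glutamate transporters were no DEGs. Slc1a2 had a Log2FC of 0.42 (FDR 0.138), with overlapping groups, and Slc1a3, with 918, 954, 968 and 956 CPM and then 1186, 1289, 1154 and 1091 CPM, one of 0.35 (FDR 0.0771), without overlap. Aqp4, at −0.35, was the lowest of the list.

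The enzyme genes Etnppl, Prodh and Gldc were increased, and other metabolic enzymes of astrocytes were not compared as a list. Etnppl, phosphoethanolamine lyase, had 1.59, 2.93, 4.25 and 3.37 CPM at 5 days and 9.61, 16.4, 20.4 and 18.5 CPM at 8 days (Log2FC 2.24, SE 0.40, FDR 0.00178), and it is named by rule. Prodh, proline dehydrogenase, and Gldc, glycine decarboxylase, were picked after their values were seen. Prodh had 5.58, 8.81, 8.93 and 6.03 CPM and then 16.6, 20.6, 24.6 and 17.5 CPM (Log2FC 1.37, SE 0.18, FDR 8.07e-05). Gldc went from 19, 30.4, 27.4 and 25 CPM to 46, 59.2, 51.3 and 44.1 CPM (Log2FC 0.96, SE 0.13, FDR 0.000126). In both, the change differed from that of rAAV-control mice, by 1.29 (FDR 0.0393) and 0.96 (FDR 0.0393), and both had been below rAAV-control mice at 5 days, by −1.44 and −1.21 on the log2 scale.

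**Figure D3:**
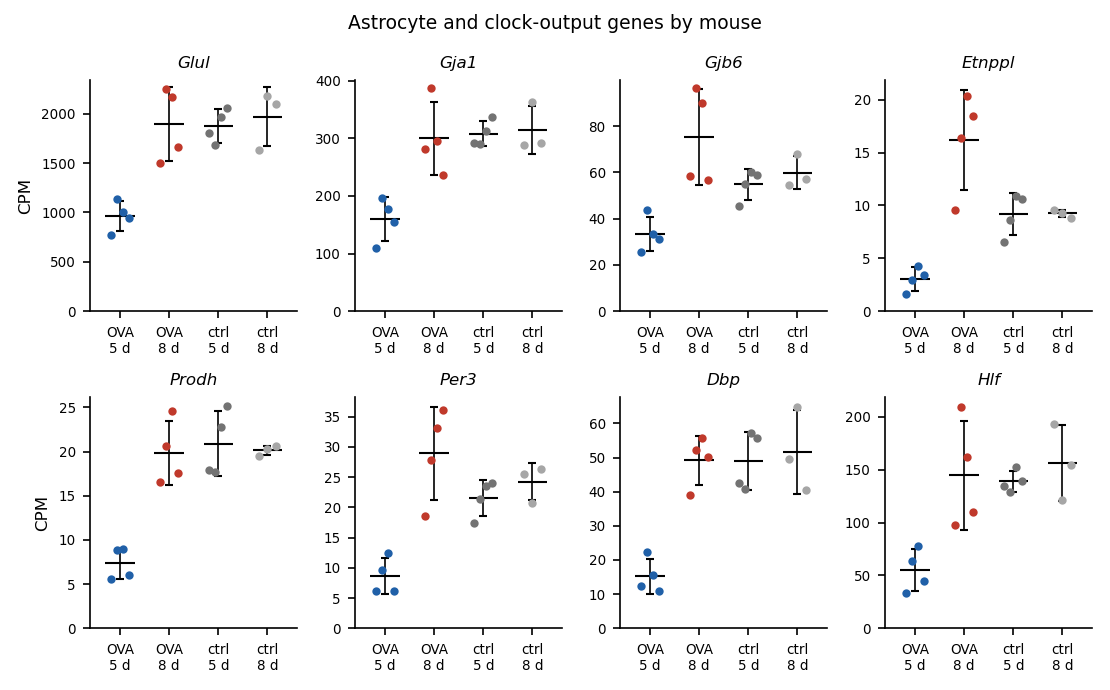
CPM of 5 astrocyte genes and 3 clock-output genes in each mouse, with the groups on the x axis and the mean and SD as black bars. In all 8 genes the rAAV-OVA mice of 5 days (blue) are the lowest group, and at 8 days (red) Glul reaches a mean of 1896 CPM beside 1972 CPM in rAAV-control mice.

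Genes under the circadian clock, a list drawn up after their values were seen, held increases too. Of 18 such genes, 5 were increased and 1 decreased. Per3, a period gene, had 6.24, 9.58, 12.5 and 6.2 CPM at 5 days and 18.6, 27.8, 33.2 and 36.2 CPM at 8 days, and is named by rule with Dbp (Log2FC 1.65, SE 0.19, FDR 1.57e-05). Dbp, a PAR-domain transcription factor, had 12.4, 22.4, 15.5 and 10.8 CPM and then 38.9, 52.1, 55.6 and 50.2 CPM (Log2FC 1.58, SE 0.23, FDR 0.000257). Its relatives Hlf, with 33.5, 63.8, 78.2 and 44.4 CPM and then 97.4, 209.6, 162 and 109.7 CPM (Log2FC 1.142), and Tef (Log2FC 0.73) also rose, as did the clock repressor Ciart (Log2FC 1.08). Hlf was no DEG with the 8 rAAV-OVA mice alone, Tef none without D725 or with ashr shrinkage, and Ciart none without D787 or D703. Nfil3, which binds the same sites as Dbp and represses them, fell from 23.5, 21.7, 21.3 and 30.9 CPM to 18.1, 11.1, 12.9 and 13.5 CPM (Log2FC −0.70, FDR 0.00719), and was no DEG without D787, without D703 or with ashr shrinkage. The core clock genes Bmal1 (Log2FC −0.52), Clock (−0.27), Cry1 (−0.28) and Per2 (0.31) were no DEGs. Against rAAV-control mice Per3 and Dbp had been lower at 5 days, by −1.14 and −1.50, and the change of Per3 differed from theirs (FDR 0.0267). The labels do not give the hour at which tissue was taken. Of 15 genes that glucocorticoids induce, a second list drawn up after the values were seen, Fam107a (1.26) and Sult1a1 (1.59) were increased and 0 decreased, with a median Log2FC of 0.40 and 2 to 5 increased over the alternatives. The highest member, Plin4, had a Log2FC of 2.55 and was no DEG (FDR 0.135), and Fkbp5, a classical target, was at 0.25. The summed level of the list was 789 to 1150.0 CPM in the mice of 5 days and 1317 to 1582 CPM in those of 8 days, without overlap, and the rAAV-control mice D696, D720 and D722 of 8 days had 963, 1570.0 and 1031 CPM.

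The interferon response did not fall by the test. Of 27 genes of the interferon-gamma response, 0 were DEGs in either direction, with a median Log2FC of 0.36, and of 34 type I interferon stimulated genes 0 were DEGs, with a median of 0.29. The sign of both medians depended on the surrogate variables, and without them the medians were −0.26 and −0.15. The median fitted change of these lists in rAAV-control mice over the same days was 1.68 and 1.71, with 0 DEGs. Gbp2, the guanylate-binding protein gene with the most reads here, shows this, with 1036, 558, 853 and 839 CPM at 5 days and 754.8, 349.7, 529 and 677 CPM at 8 days. The groups overlapped, the mean was lower at 8 days, and the Log2FC was 0.29 (SE 0.66) in the model and −0.51 without surrogate variables. Ifit1, a sensor of foreign RNA, had 56.4, 27.7, 47 and 58.5 CPM and then 54.9, 21.1, 36.9 and 32.3 CPM (Log2FC 0.04, SE 0.62, and −0.38 without surrogate variables). Oasl2, another antiviral gene, had 195, 116, 203 and 201 CPM and then 229, 89.3, 160.0 and 157 CPM (Log2FC 0.38, FDR 0.778, and −0.17 without surrogate variables). The rAAV-control mice had 6.22 to 36.4 CPM of Gbp2 at 5 days, and at 8 days 10.9 and 32.9 CPM in D696 and D722 and 335 CPM in D720, so at 8 days the control group itself was uneven.

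The receptors and signalling genes behind these responses were likewise without a DEG, 0 of 26, with a median of 0.20 (−0.03 without surrogate variables). Ifngr1, a chain of the interferon-gamma receptor, had 33.4, 37.5, 38.2 and 33.2 CPM at 5 days and 67, 34, 36.5 and 46.2 CPM at 8 days (Log2FC 0.48). Among these genes Socs3, which restrains STAT3, stood lowest at −0.80 and Stat4 of lymphocytes highest at 1.05. Antigen presentation on MHC class I also had 0 DEGs among 20 genes, with a median of 0.30 (−0.13 without surrogate variables, and 1.03 for the change in rAAV-control mice). H2-K1, which presents the OVA peptide to OT-I cells, had 1015, 775, 984 and 898 CPM and then 1399, 563, 759 and 909 CPM, and B2m, the light chain of MHC class I, 1564, 1366, 1646 and 1594 CPM and then 2236, 1021, 1354 and 1541 CPM. In both, D700 was the highest of the 8 mice and D701 the lowest.

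Genes of MHC class II had a higher median, 0.67 (0.33 without surrogate variables), and 0 DEGs among 13. Cd74, the invariant chain, had 1239, 1149, 1453 and 1197 CPM at 5 days and 2637, 1189, 1343 and 1919 CPM at 8 days (Log2FC 1.04, SE 0.76, FDR 0.493, and 0.49 without surrogate variables). H2-Aa, a class II alpha chain, had 543.8, 538, 624 and 503 CPM and then 1179, 479.7, 563 and 819 CPM (Log2FC 0.97, and 0.46 without surrogate variables). The values of 5 days were tight, and at 8 days D700 and D703 lay above them while D701 and D702 lay within or near their range.

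**Figure D4:**
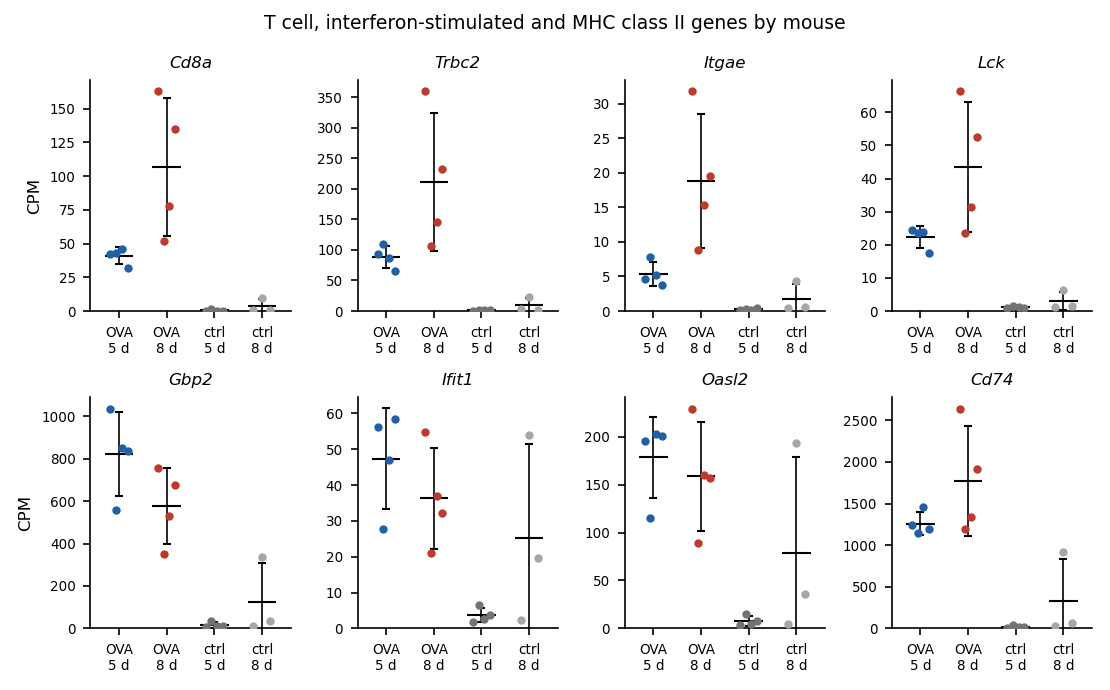
CPM of 4 T cell genes (upper row) and of 3 interferon-induced genes and Cd74 (lower row) in each mouse, with the groups on the x axis and the mean and SD as black bars. The mice of 8 days (red) are spread widely, with Cd8a between 52 and 163 CPM, Gbp2 overlaps between both days, and 1 rAAV-control mouse of 8 days (D720) stands above the other 2.

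Some T cell genes rose. Of 21 genes that identify T cells, 9 were in the table and 3 of these were increased, with a median Log2FC of 1.33 over the 9 and 0.998 without surrogate variables, where 0 of them were DEGs. Over all alternatives 0 to 8 were increased. Cd8a (ENSMUSG00000053977.14), a chain of the CD8 co-receptor, had 42.4, 43.2, 46.2 and 32 CPM at 5 days and 163, 52, 77.6 and 135 CPM at 8 days. Every mouse of 8 days was above every mouse of 5 days, and D700 and D703 were far above (Log2FC 1.94, SE 0.46, FDR 0.0158). Lck, the kinase at the T cell receptor, had 24.5, 23.5, 23.9 and 17.4 CPM and then 66.5, 23.6, 31.5 and 52.5 CPM, so that D701 reached only the level of 5 days (Log2FC 1.33, SE 0.32, FDR 0.016). Trbc2, a constant region of the receptor's beta chain, had 93.9, 109.5, 86 and 65.8 CPM and then 359.7, 106, 146 and 232 CPM, with an overlap and an FDR close to the limit (Log2FC 1.63, SE 0.47, FDR 0.0487). Trbv12-1, a variable segment of beta chains, had 37.7, 41.7, 32.9 and 24.2 CPM and then 145, 42.9, 62.4 and 95 CPM (Log2FC 1.79, FDR 0.0206). Cd6, an adhesion receptor, was just short of the limit, with 10.6, 13.1, 9.16 and 8.49 CPM and then 42.2, 10.4, 16.8 and 29.4 CPM (Log2FC 1.59, FDR 0.054). Cd8a, Lck, Trbc2 and Trbv12-1 were no DEGs without surrogate variables (FDR 0.339, 0.377, 0.355 and 0.297), without D725, without D700 or with the 8 rAAV-OVA mice alone. In all, the call was lost under 11 of 25 alternatives for Cd8a, 8 of 26 for Lck, 19 of 26 for Trbc2 and 11 of 25 for Trbv12-1, among them both forms of DESeq2 for all but Lck. The fitted change in rAAV-control mice over the same days was 2.22 for Cd8a, 0.89 for Lck, 1.86 for Trbc2 and 2.39 for Trbv12-1, with 0 of them DEGs. Cd8a had 0.108 to 1.35 CPM in those mice at 5 days and 1.09, 9.73 and 0.517 CPM in D696, D720 and D722 at 8 days. The difference between both changes was −0.28 for Cd8a (FDR 0.963), and it did not pass the test in any of these 4 genes. In rAAV-OVA mice of 2 days Cd8a averaged 0.132 CPM and in those of 28 days 106 CPM, and each of these groups held mice of both batches.

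Itgae (ENSMUSG00000005947.12), the CD103 integrin chain that holds T cells in tissue and that dendritic cells also carry, had the largest change of the T cell genes, with 4.62, 7.79, 5.24 and 3.74 CPM at 5 days and 31.8, 8.79, 15.3 and 19.6 CPM at 8 days. Its groups did not overlap (Log2FC 2.30, SE 0.45, FDR 0.00372), it was a DEG with each mouse left out in turn, and without surrogate variables its FDR was 0.152. Its fitted change in rAAV-control mice was 1.78, with 0.223 to 0.431 CPM at 5 days and 0.376, 4.3 and 0.557 CPM in D696, D720 and D722 at 8 days, so that D720 alone stood above the mice of 5 days by a wide margin, and the difference between both, 0.52, did not pass the test (FDR 0.924). It was the DEG among 11 tested genes of checkpoints, activation and residence, of 18 listed, and among 6 dendritic cell genes. Lag3, an inhibitory receptor, had 39, 31.2, 35.3 and 40.2 CPM and then 92.2, 50, 58 and 73.8 CPM, without overlap (Log2FC 1.16, FDR 0.0832). The genes of killing and cytokine reception held 0 DEGs among 10 tested of 22 listed, with a median of 0.87, of 0.48 without surrogate variables and of −0.29 over the genes with 15 counts in every mouse. Gzmb, granzyme B of cytotoxic granules, had 44.6, 11.6, 42 and 26.5 CPM and then 39.6, 14.5, 17.4 and 25.5 CPM (Log2FC 0.14, SE 0.56, and −0.36 without surrogate variables), beside Cd8a, which rose. The difference between the changes of Gzmb and Cd8a was not tested. Ccl5, a chemokine of effector T cells, had 65.5, 70.3, 79.1 and 55.3 CPM and then 154, 46.4, 68.2 and 133 CPM (Log2FC 0.85, FDR 0.564).

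Dividing cells were measured through 49 genes of the cell cycle and DNA replication. None of them was a DEG by edgeR (0 of 49), and 47 had a Log2FC above 0, where 55.7% of all genes did. The median was 0.38 (0.17 without surrogate variables). Mki67, the gene of the proliferation marker Ki-67, had 51.1, 53.5, 45.2 and 34.9 CPM at 5 days and 84.1, 28.8, 46.9 and 68.5 CPM at 8 days (Log2FC 0.50, FDR 0.566, and 0.31 without surrogate variables). D700 was again the highest and D701 the lowest, in the same order as for Cd8a. H1f4, a linker histone named by rule, had 0.814, 1.57, 1.43 and 1.18 CPM and then 4.23, 4.83, 4.57 and 4.43 CPM (Log2FC 1.89, SE 0.23, FDR 3.49e-05), and its change differed from that of rAAV-control mice (FDR 0.0151). Histone mRNA mostly lacks a poly(A) tail, so libraries made from polyadenylated RNA, as here, capture it in part.

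Recruited myeloid cells and chemokines had few changes by the test. Of 25 genes of monocytes and macrophages, Thbs1 was decreased, and the median was 0.06 (−0.20 without surrogate variables). Ccr2, the receptor that guides monocytes, had 44.4, 24.2, 28.4 and 18.6 CPM at 5 days and 18.6, 9.62, 10.3 and 17 CPM at 8 days. The lowest mouse of 5 days, D787, was level with the highest of 8 days, D700, and Ccr2 was no DEG (Log2FC −0.70, FDR 0.509, and −1.05 without surrogate variables). Of 26 chemokines and receptors 0 were DEGs, with a median of 0.19 (−0.10 without surrogate variables). Ccl2, which attracts monocytes, had 62.8, 22.9, 55.7 and 38.2 CPM and then 28.4, 13.3, 24.1 and 28 CPM (Log2FC −0.17, and −0.93 without surrogate variables). In 8 of these 26 genes all mice of 8 days lay below all of 5 days, a larger share than the 6.59% of all genes. In 0 of the 26 they all lay above, where 6.41% of all genes did so. The subunits, regulators and targets of NF-kappaB held 0 DEGs among 26, with a median of 0.25 (0.05 without surrogate variables). Nfkb1 had 62.2, 58.2, 63.5 and 49.1 CPM and then 102, 45.6, 56.6 and 76 CPM. Complement held 0 DEGs among 20, with C1qa at 366, 365, 360.1 and 376 CPM and then 566, 285, 367 and 422 CPM. The 3 neutrophil genes and the 2 genes of NK and B cells in the table were no DEGs.

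Microglia and lipid genes made a smaller group. All 13 genes of homeostatic microglia had a Log2FC above 0, where 55.7% of all genes did, with a median of 0.25, and 0 were DEGs. P2ry12, their purinergic receptor, had 28.8, 36.5, 34.4 and 36 CPM at 5 days and 51, 51.9, 35.9 and 36.3 CPM at 8 days (Log2FC 0.41, FDR 0.214), and Csf1r, the receptor they need to survive, 380.2, 416, 399.6 and 358 CPM and then 561, 329.9, 350.3 and 394 CPM. Of 24 disease-associated microglia genes, Apoe was increased. Apoe, the lipid carrier made by astrocytes and activated microglia, had 980.4, 1482, 1161 and 1091 CPM and then 1966, 1799, 2007 and 2147 CPM, without overlap (Log2FC 0.82, SE 0.20, FDR 0.0216), and it lost the call under 10 of 26 alternatives, among them the model without surrogate variables. Apoc1, its neighbour in the genome, had 0.970, 1.32, 0.796 and 0.236 CPM and then 2.57, 1.83, 2.28 and 3.37 CPM (Log2FC 1.81, SE 0.41, FDR 0.0118), and was no DEG without surrogate variables, with the batch label in their place or with the 8 rAAV-OVA mice alone. Both were the DEGs among 14 genes of cholesterol export and lipid storage. Of 22 genes of cholesterol synthesis 0 were DEGs, and 0 to 2 were decreased DEGs over the alternatives with the limit on Log2FC. Without that limit 5 of the 22 were decreased, as were 365 of all 15648 genes. A Log2FC below 0 was found in 20, where 55.7% of all genes had one above 0, and the median was −0.31. Hmgcs1 had a Log2FC of −0.68 (FDR 0.0997) and was a DEG by DESeq2's Wald test, without D786 and without D701. Of 29 genes of cathepsins and the lysosome 0 were DEGs.

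Matrix, vessel and myelin genes added little. Of 33 collagens, matrix genes and proteases, Tnc and Adamts1 were decreased. Adamts1, a protease of matrix proteoglycans, had 60.7, 24.5, 42 and 51.3 CPM at 5 days and 21.8, 15.4, 17.1 and 21.4 CPM at 8 days (Log2FC −1.03, SE 0.27, FDR 0.031), and was no DEG without any 1 of D725, D786, D787, D700, D702 or D703 or with ashr shrinkage. Of 17 endothelial genes, 16 of myelinating oligodendrocytes and 13 of their precursors 0 were DEGs. Cldn5 of the tight junctions had a Log2FC of −0.13 (FDR 0.83), and Mbp of myelin, at 1806, 2220, 1412 and 1937 CPM and then 2595, 1437, 3006 and 1867 CPM, one of 0.40 (FDR 0.383).

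**Figure D5:**
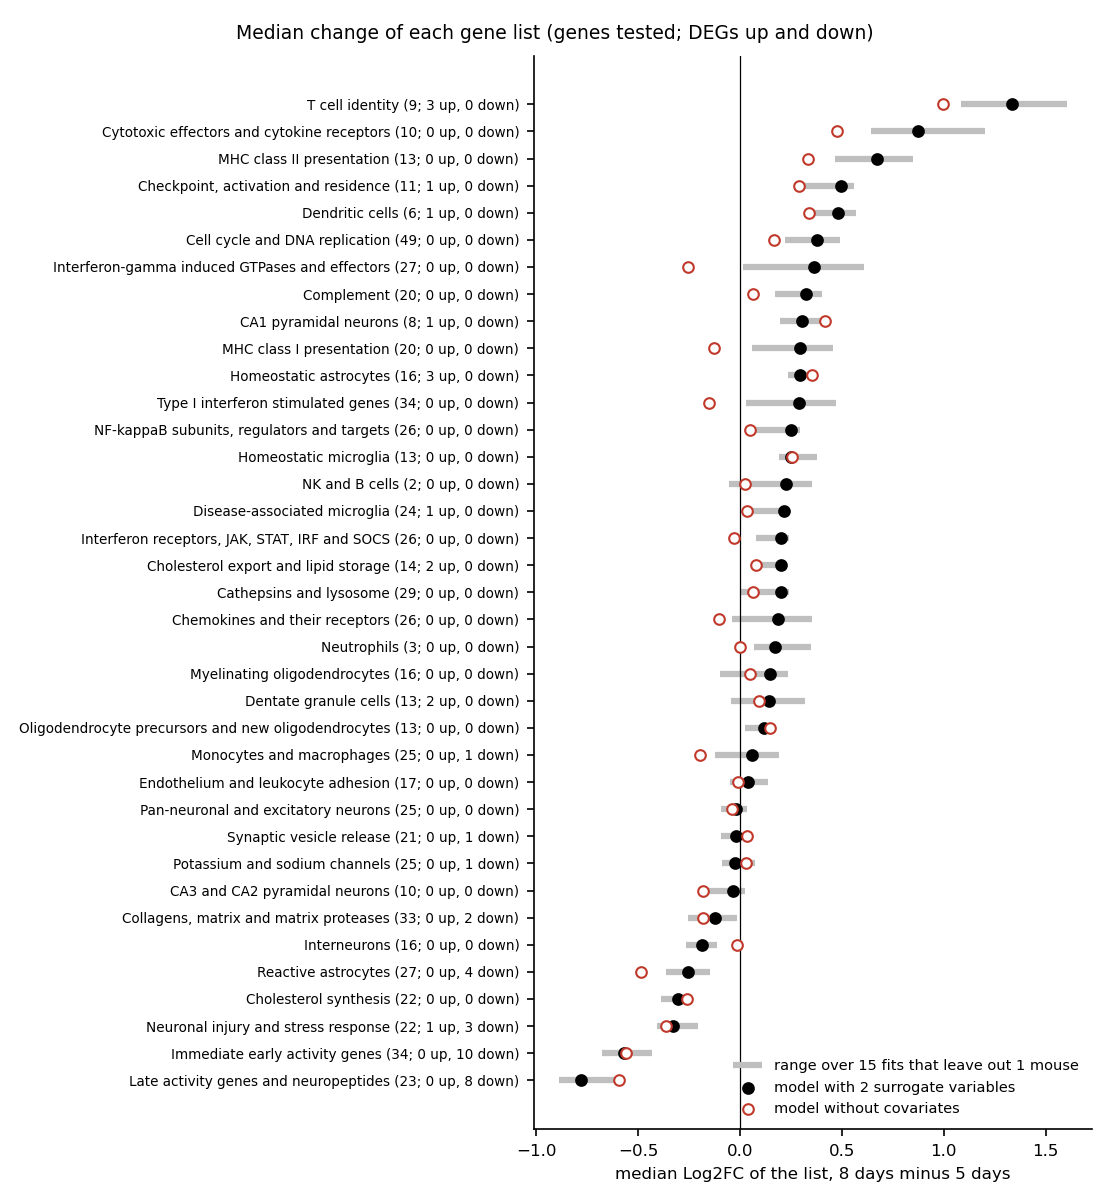
Median Log2FC from 5 to 8 days of 37 gene lists on the x axis, 1 list per row with the genes tested and the DEGs up and down in brackets. Black points are the model with 2 surrogate variables, open points the model without covariates, and grey bars the range when each of 15 mice is left out in turn. The activity lists lie lowest under both models, and the lists of interferon genes, MHC class I, monocytes and chemokines are among those that change sign between them.

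Genes of tissue that a dissection can add were also compared. Of 8 choroid plexus genes and 5 red blood cell genes 0 were DEGs, with Ttr of the choroid plexus at 21.7, 32.2, 24.5 and 95.8 CPM at 5 days and 26.1, 15.3, 30.8 and 52 CPM at 8 days. Of 9 genes of neighbouring brain regions, Lef1, a gene of thalamus and of lymphocytes, was increased, from 4.58, 6.62, 6.34 and 4.28 CPM to 12.1, 9.62, 8.88 and 9.7 CPM (Log2FC 0.91, SE 0.26, FDR 0.0478). Drd1, a dopamine receptor of striatum and dentate gyrus, was decreased, from 16.8, 3.48, 7.23 and 6.51 CPM to 2.1, 4.25, 3.15 and 1.9 CPM (Log2FC −2.32, SE 0.67, FDR 0.046), with an overlap and with D725 the highest. Both lost the call under many alternatives, Lef1 under 11 and Drd1 under 13 of 26. The 13 mitochondrially encoded genes were no DEGs, with a median of 0.06.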

How the data were processed

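Left hippocampal RNA of 31 mice was sequenced, and 15 mice of 5 and 8 days enter the comparisons here. After trimming by fastp, the authors quantified transcripts of GENCODE M29 (GRCm39) with Salmon 1.8.0 under its GC option, collapsed them to genes through tximeta and deposited estimated counts, whole and unnormalized. Both deposited tables hold the same counts, with 0 cells differing. Totals per mouse ran from 19046977 to 57407902 counts. Within the rAAV-OVA groups of 5 and 8 days no pair of mice differed by counting noise alone, and pairs of the other groups were not checked.

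edgeR 4.0.16 (R 4.3.3; TMM, robust quasi-likelihood F-test) was fitted to all 31 mice in 8 groups with 2 surrogate variables from sva 3.50.0, and contrasts were taken from that fit. DESeq2 1.42.0 with and without ashr 2.2.63, limma 3.58.1 (voom), other covariates, filters and sets of mice, and each mouse left out in turn, were alternatives. The steps were tested on simulated data. The gene lists were compiled by hand from 830 entries in 41 lists, with 763 found, and 2 lists were added later. The members and lists were chosen with earlier results of these data known. Named genes are the 12 largest increases and decreases among DEGs with a symbol, at least 1 CPM and no overlap, up to 4 DEGs a direction in each list, the member with the highest CPM of a list without DEGs, and 2 defining members a list. Any other gene was picked after its values were seen. That replicates are separate mice is given by the labels.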

Additional observations from a re-analysis of the deposited data

Results flagged for a closer look

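Single mice stood far from the other 3 of their group in 13 of 306 groups of 4 checked with Dixon's limit for gaps, where chance alone flags about 1 in 20 groups, here 15.3. At 5 days, mouse D787 was high in Fos (97.6 CPM, the others 43.7 to 50.6), Nr4a1 (110.0 CPM, the others 50.3 to 59.3) and Ttr (95.8 CPM, the others 21.7 to 32.2), and low in Lck (17.4 CPM, the others 23.5 to 24.5), Ciart (2.39 CPM) and the cathepsin and lysosome list (mean log2 CPM 7.16, the others 7.25 to 7.27). Mouse D726 was low in Oasl2 (116 CPM, the others 195 to 203) and high in the homeostatic microglia list (mean log2 CPM 5.59). Mouse D786 was high in Calca (5.74 CPM) and D725 in Prox1 (171 CPM, the others 80.1 to 92.5). At 8 days, D700 was high in Fos (26.6 CPM, the others 13.2 to 14.1) and low in the late activity list (mean log2 CPM 4.65), and D701 was high in Sv2c (37.1 CPM, the others 26 to 26.9).

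The change from 5 to 8 days differed between rAAV-OVA and rAAV-control mice by the test of that difference in 15 genes of the text. The change in rAAV-OVA mice minus that in rAAV-control mice, on the log2 scale, was −3.18 for Inhba, −2.49 for Fstl3, −2.37 for Olfm4, −2.26 for Nptx2, −2.01 for Acvr1c, −1.37 for Chga, −1.26 for Pmepa1, −1.23 for Fosl2 and −0.78 for Skil. It was 2.02 for H1f4, 1.95 for Gm14569, 1.94 for Gm20743, 1.44 for Per3, 1.29 for Prodh and 0.96 for Gldc. The other DEGs of the text did not pass this test, which does not show that they changed alike in both groups.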

How the results depend on the processing

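No paired analysis was possible because no replicate name occurs in more than 1 group. All 336 DEGs kept their direction in each alternative that left no mouse out, where they were tested (289 of 289 with 15 counts in every mouse). Their number was 172 with ashr shrinkage (62 increased, 110 decreased) and 709 without a limit on Log2FC (344 and 365), and between 229 and 432 otherwise. The increased ones numbered 104 without covariates and 88 with the 8 rAAV-OVA mice alone, where 210 and 186 of the 336 DEGs were called again. With single mice left out there were 155 to 400 DEGs, 46 to 217 of them increased (46 without D725, 76 without D787, 77 without D702, 99 without D700 and 105 without D703) and 109 to 231 decreased (109 without D725). In rAAV-control mice DESeq2 called 2 genes with and 2 without shrinkage, and 0 to 0 were called with mice left out. The difference between both changes called 68 genes by DESeq2, 53 with shrinkage, 15 without covariates, 18 with the batch label, 11 with the mice of 5 and 8 days alone, and 8 (without D755) to 34 with mice left out. The cause of these differences was not tested. Groups of 4 mice limit what could be detected, and depth limits genes under 1 CPM.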
